A study of Mus musculus with 6 samples.

Results

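Expression of 10 genes of the major histocompatibility complex (MHC) class II pathway was examined in mouse bone marrow cells labelled as hematopoietic stem cells. The genes were taken by symbol: the chain genes H2-Aa, H2-Ab1 and H2-Eb1, the invariant chain gene Cd74, the peptide loading genes H2-DMa, H2-DMb1, H2-DMb2, H2-Oa and H2-Ob, and the transactivator gene Ciita. Each symbol matched a single row, so 10 of the 52550 genes in the files were described. Knockout (KO) libraries came from Ppp2ca f/f mice that also carry VAV1cre, a Cre recombinase expressed throughout blood cells, and wild-type (WT) libraries from Ppp2ca f/f mice for which the labels name no Cre (3 libraries each). Both groups thus carry floxed alleles of Ppp2ca, which encodes a catalytic subunit of protein phosphatase 2A, and age, sex and strain are not given in the labels. Because Cre acts in all blood lineages, any blood cell in the KO libraries may have lost the gene, and an effect of Cre itself cannot be told apart from the loss of Ppp2ca.

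MHC class II molecules are heterodimers of an alpha and a beta chain that show peptides from ingested proteins to CD4+ T cells. The chains assemble in the endoplasmic reticulum with the invariant chain, encoded by Cd74, which blocks the peptide groove until lysosomal proteases trim it. The H2-DM heterodimer then exchanges the remaining fragment for a peptide, and H2-O restrains H2-DM. CIITA, the transactivator, does not bind DNA itself but is held at class II promoters by RFX, NF-Y and CREB family proteins. B cells and dendritic cells express the pathway constitutively, interferon gamma induces it in other cells, and blood stem and progenitor cells can also carry class II molecules.

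NF-Y binds the Y box, whose core reads ATTGG on the gene strand, and RFX binds the X box upstream of it. Promoters of 7 of the 10 genes were taken from RefSeq (GRCm38.p6, 250 bases before to 50 bases after the annotated start). H2-Ab1 and Ciita were not matched, and the promoter of Cd74 is not reported here. The 2 full promoters printed here are those of the chain gene with the largest decrease in KO and of the loading gene with the smallest. Capitals mark ATTGG and, where present, a GNAAC, a core of the X box, with 24 to 30 bases between them. Matches to GNAAC elsewhere stay in lower case.
H2-Aa, chr17:34287774-34288073, minus strand: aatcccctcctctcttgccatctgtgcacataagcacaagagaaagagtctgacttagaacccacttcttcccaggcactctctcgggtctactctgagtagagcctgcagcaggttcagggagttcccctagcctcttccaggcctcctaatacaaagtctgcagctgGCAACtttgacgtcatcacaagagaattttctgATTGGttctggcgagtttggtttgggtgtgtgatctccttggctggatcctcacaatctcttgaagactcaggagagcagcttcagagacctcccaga
H2-DMb1, chr17:34152941-34153240, plus strand: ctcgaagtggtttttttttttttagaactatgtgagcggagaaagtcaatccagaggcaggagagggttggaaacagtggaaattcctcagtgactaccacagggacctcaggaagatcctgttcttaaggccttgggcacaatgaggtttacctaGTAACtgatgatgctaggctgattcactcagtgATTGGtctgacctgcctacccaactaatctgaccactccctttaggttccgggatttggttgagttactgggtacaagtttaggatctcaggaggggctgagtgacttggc
The 75-base windows around the Y box of 4 more genes show the same arrangement, except in H2-DMb2. There no GNAAC matched at that spacing and only ATTGG is in capitals, which does not show that an X box is absent.
H2-Ob, chr17:34238793-34238867, plus strand: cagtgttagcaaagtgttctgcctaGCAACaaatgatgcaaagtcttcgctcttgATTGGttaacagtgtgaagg
H2-Eb1, chr17:34305753-34305827, plus strand: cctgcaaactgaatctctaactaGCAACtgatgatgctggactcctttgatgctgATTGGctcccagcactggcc
H2-Oa, chr17:34092281-34092355, plus strand: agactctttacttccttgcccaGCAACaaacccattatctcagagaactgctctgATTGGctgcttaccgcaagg
H2-DMb2, chr17:34145104-34145178, plus strand: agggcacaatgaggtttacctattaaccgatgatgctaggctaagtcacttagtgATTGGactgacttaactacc
ATTGG was present on the gene strand in at least 1 promoter of each of the 7 genes, and in 22.1% of 32851 RefSeq promoters. Counts of the 7 are by gene and the shares by promoter, so they are not like measures. For H2-DMa, the entry at 34125268 to 34125567 held ATTGG, 198 bases before its start, and the entry at 34122582 to 34122881 did not. GNAAC followed by ATTGG after 24 to 30 bases was present on the gene strand in 5 of the 7, with 25 to 28 bases between them, and in 0.578% of all promoters, or 1.19% when both strands were searched. GNAAC alone occurred in 61.6% of promoters on the gene strand. The letters and the spacing were chosen after these promoters had been read, so the match is a description. The H2-DMb2 window was identical to the H2-DMb1 window at 65 of 75 positions. The H2-DMa entries belong to starts upstream of the gene as the files place it and are not printed.

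The libraries held 46033994 to 58692037 reads over genes in KO and 37951985 to 48665968 in WT. Values are read counts divided by a size factor for each library, called normalised read counts here, and are not divided by gene length. Ppp2ca had normalised read counts of 23728, 22419 and 24046 in KO and 32909, 33451 and 33169 in WT, so all KO values were lower but far from 0. Of 15 stem cell markers, 14 fell in KO, beside 13.0% of all tested genes called lower. The 14 included Esam (log2 fold change -2.57), Mecom (-2.23) and Mllt3 (-1.83). The list summed to 33487 to 53074 in KO and 98651 to 111376 in WT. The labels do not say whether libraries came from separate animals, so the tests take account of variation among these libraries alone, which may be technical. Myeloid genes were abundant in both groups, with means of 20807 in KO and 51364 in WT for the lysozyme gene Lyz2. In bulk RNA, fewer cells of a type and less RNA per cell cannot be told apart.

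Class II genes were lower in KO, and by very different amounts. Together the 10 genes had 7029, 8874 and 8762 normalised reads in KO replicates 1 to 3, against 29523, 27154 and 24433 in WT. All 10 had every KO value below every WT value, and 9 of 10 passed the test (limma, Benjamini-Hochberg adjusted p below 0.05 over 20136 genes), all 9 lower and 0 higher. Among all tested genes, 13.0% were called lower and 10.3% higher. KO values lay entirely below WT values in 21.7% of all tested genes, and the groups were apart in either direction in 40.9%. Of the 10 genes, 7 were called with a decrease of at least 2-fold, beside 8.30% of all tested genes. The median log2 fold change of the 10 genes was -2.05, beside -0.02 for all genes tested. The genes fell into a steep set, H2-Aa, H2-Eb1, Cd74 and H2-Ob, below the 5th percentile of all genes (-2.43), and a shallower set in which H2-DMb1 and H2-DMb2 changed least. This grouping was made after the values were seen.

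**Figure D1:**
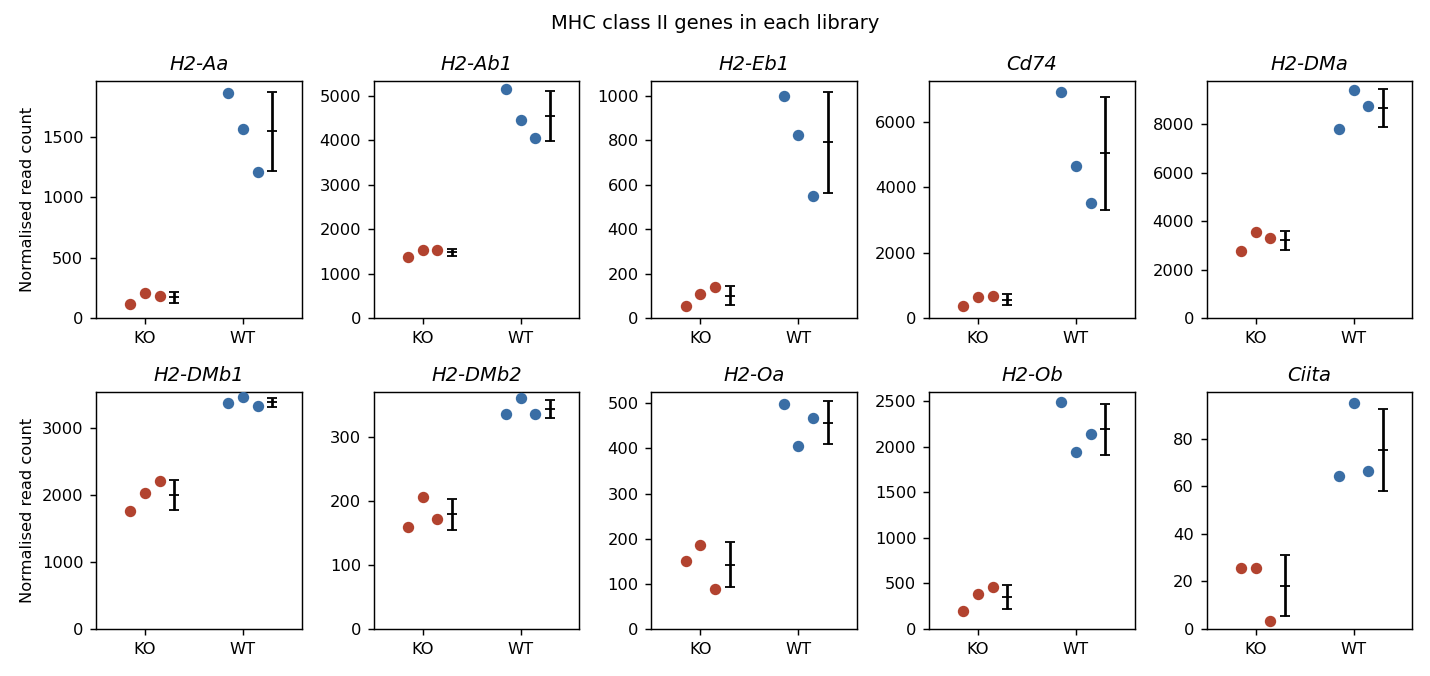
Normalised read counts of the 10 class II genes in each of the 3 KO and 3 WT libraries (points), with the mean and SD beside them; every panel has its own linear axis from 0. KO points lie below all WT points in each panel. The KO mean is the smallest fraction of the WT mean in H2-Aa, H2-Eb1, Cd74 and H2-Ob and the largest in H2-DMb1 and H2-DMb2.

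H2-Aa encodes the alpha chain of the H2-A molecule (ENSMUSG00000036594.14, GRCm38 chromosome 17, 34282744 to 34287827, minus strand). It had normalised read counts of 119.0, 211.2 and 183.8 in KO replicates 1 to 3 and of 1864, 1563 and 1207 in WT replicates 1 to 3. All KO values were a small fraction of the lowest WT value. The means were 171.3 ± 47.4 in KO and 1545 ± 328.9 in WT (SD, n = 3 each), so the KO mean was 11.1% of the WT mean. This was a log2 fold change of -3.18 ± 0.26 (SE; adjusted p = 0.000616 in limma).

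H2-Ab1 encodes the beta chain that pairs with H2-Aa (ENSMUSG00000073421.5, chromosome 17, 34263209 to 34269418, plus strand). It had 1376, 1532 and 1526 normalised reads in KO and 5143, 4446 and 4051 in WT. The KO libraries lay close together, with a coefficient of variation of 5.96%, and well under the WT libraries. KO kept 32.5% of the WT level (means 1478 ± 88.1 in KO and 4547 ± 553.2 in WT, SD, n = 3 each), a log2 fold change of -1.62 ± 0.12 (SE, adjusted p = 0.000428 in limma). Its log2 fold change was closer to 0 than that of its alpha partner, and their ratio is compared further on.

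H2-Eb1 encodes the beta chain of the H2-E molecule (ENSMUSG00000060586.10, chromosome 17, 34305877 to 34316199, plus strand). It had 55.7, 109.05 and 140.6 normalised reads in KO and 1000.1, 824.1 and 547.8 in WT. KO kept 12.9% of the WT level, with a log2 fold change of -3.001 ± 0.38 (SE, adjusted p = 0.00211 in limma). The spread was wide, with coefficients of variation of 42.2% in KO and 28.8% in WT, but the groups did not overlap. The row of the matching alpha chain, H2-Ea-ps, was at 0 reads in all 6 libraries, which allows up to 3 reads in each for counting error. H2-Eb2, another beta chain gene, had 3.45 normalised reads in KO replicate 3 and 0 in every other library. In mouse strains with the b haplotype, such as C57BL/6, the alpha chain gene of H2-E lacks its promoter and the H2-E molecule is not made, and the labels do not name the strain.

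Cd74 encodes the invariant chain, a class II chaperone that also serves at the cell surface as a receptor for the cytokine MIF (ENSMUSG00000024610.14, chromosome 18, 60803848 to 60812646). It had 386.9, 636.6 and 686.8 normalised reads in KO and 6924, 4658 and 3529 in WT. WT replicate 1 was highest and the WT coefficient of variation was 34.3%, yet the lowest WT value stood far above the highest KO value. KO kept 11.3% of the WT level (log2 fold change -3.13 ± 0.29 SE, adjusted p = 0.000804 in limma). This is close to the percentages of H2-Aa and H2-Eb1.

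The genes of H2-DM, the peptide exchange factor, had the shallowest decreases. H2-DMa, its alpha chain (ENSMUSG00000037649.9, chromosome 17, 34135182 to 34139101), had 2793, 3550 and 3301 normalised reads in KO and 7825, 9398 and 8764 in WT. KO kept 37.1% of the WT level (log2 fold change -1.43 ± 0.12 SE, adjusted p = 0.000630 in limma). H2-DMb1, a beta chain (ENSMUSG00000079547.3, chromosome 17, 34153072 to 34160230), had 1764, 2029 and 2205 in KO and 3377, 3458 and 3326 in WT. The WT libraries were almost level, with a coefficient of variation of 1.97%, and KO kept 59.02% (-0.77 ± 0.11 SE, adjusted p = 0.00302 in limma). H2-DMb2, a neighbouring beta chain gene (ENSMUSG00000037548.14, chromosome 17, 34143307 to 34151553), had 159.7, 206.3 and 170.8 in KO and 334.5, 359.7 and 335.9 in WT. KO kept 52.1% (-0.94 ± 0.20 SE, adjusted p = 0.0136 in limma), and the call was lost under quantile normalization (-0.60, adjusted p = 0.067) and without KO replicate 3 (adjusted p = 0.0536). The longest protein-coding transcripts of H2-DMb1 and H2-DMb2 in GENCODE M21 share an identical run of 221 bases, against at most 37 for any other pair of the 10 genes, so the split of reads between them is uncertain.

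H2-O is the partner that restrains H2-DM, and both of its chain genes fell. H2-Oa, the alpha chain (ENSMUSG00000024334.8, chromosome 17, 34092340 to 34095234), had 151.1, 186.7 and 88.9 normalised reads in KO and 498.3, 404.4 and 468.4 in WT. KO kept 31.1% of the WT level (log2 fold change -1.74 ± 0.30 SE, adjusted p = 0.00611 in limma). An antisense gene, BC051537, covers the whole of H2-Oa and averaged 23.8 in KO and 64.8 in WT. The sources used here do not say whether counting used strand, so reads of the pair may be mixed. H2-Ob, the beta chain (ENSMUSG00000041538.15, chromosome 17, 34238903 to 34245907), had 198.3, 388.04 and 456.4 in KO and 2491, 1948 and 2137 in WT. KO kept 15.9% (-2.73 ± 0.30 SE, adjusted p = 0.00138 in limma) and the groups stood far apart.

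Ciita, the transactivator gene, was read at a low level (ENSMUSG00000022504.9, chromosome 16, 10488178 to 10527564). It had 25.7, 25.5 and 3.45 normalised reads in KO and 64.3, 95.2 and 66.2 in WT. KO replicate 3 held 4 reads and set much of the spread, but all KO values were below all WT values. KO averaged 24.2% of the WT level (log2 fold change -2.35 ± 0.74 SE), and the difference did not pass the test (adjusted p = 0.0548 in limma). It passed in 6 of 18 alternatives, among them DESeq2 (adjusted p = 0.022) and library quality weights (adjusted p = 0.00703), and not in edgeR (adjusted p = 0.0594), over a range of adjusted p up to 0.141. Without KO replicate 3 the log2 fold change was -1.49. Dexi, a gene on the other strand, overlaps Ciita over 25034 bases and averaged 564 in KO and 1065 in WT. Ciita is transcribed from several promoters that are used in different cell types, and gene-level values do not separate them.

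**Figure D2:**
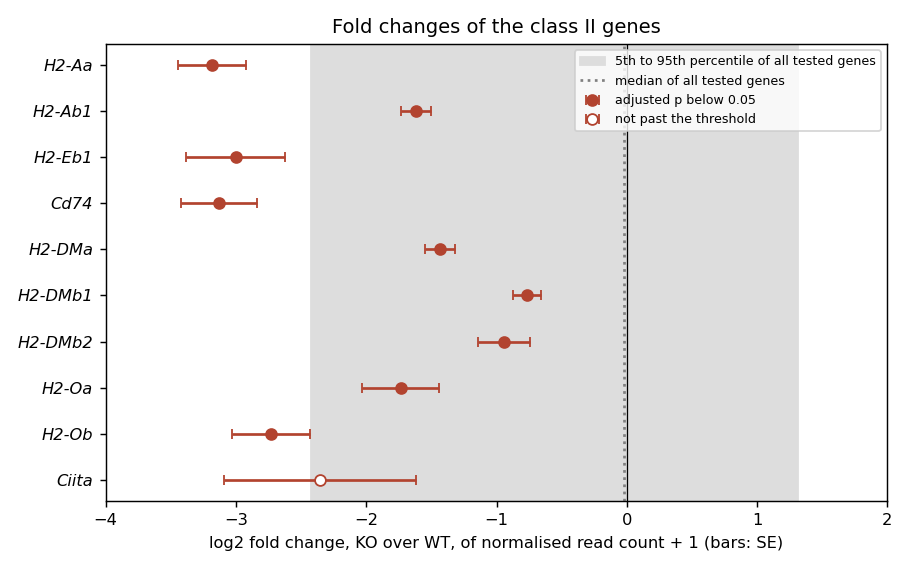
Log2 fold change, KO over WT, of each class II gene with its SE; filled points passed the adjusted threshold and the open point (Ciita) did not. The grey band spans the 5th to 95th percentile of all 20136 tested genes, and H2-Aa, H2-Eb1, Cd74 and H2-Ob lie to its left.

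For 2 of 5 pairs of class II genes, the proportion of one gene to the other did not overlap between KO and WT. Single genes had the groups apart in 40.9% of all tested genes. No such share was computed for other pairs of genes, so the count is a description. Ratios were taken inside each library on normalised reads + 1, and a change in a ratio does not depend on gene length. For H2-Ab1 over H2-Aa, the log2 ratio was 3.52, 2.85 and 3.05 in KO and 1.46, 1.51 and 1.75 in WT. The groups did not overlap, and the mean ratio was 8.81 in KO and 2.97 in WT, a difference of 1.57 on the log2 scale. For H2-DMb1 over H2-DMa, the log2 ratio was -0.66, -0.81 and -0.58 in KO and -1.21, -1.44 and -1.40 in WT, again without overlap (difference 0.67). Both had p = 0.1 in an exact two-sided permutation test, the smallest that 3 against 3 libraries allow, and 0.25 after adjustment over the 5 pairs compared.

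The other 3 pairs overlapped between groups. The log2 ratio of H2-Eb1 over H2-Aa averaged -0.80 ± 0.37 in KO and -0.99 ± 0.13 in WT (SD, n = 3 each, exact permutation p = 0.6). That of H2-Aa over Cd74 averaged -1.73 ± 0.16 in KO and -1.67 ± 0.19 in WT (exact permutation p = 0.5). H2-Aa and Cd74 thus differed between the genotypes by nearly the same factor in these libraries. H2-Ob over H2-Oa had log2 ratios of 0.39, 1.05 and 2.35 in KO and 2.32, 2.26 and 2.19 in WT (exact permutation p = 0.4), where KO replicate 3 stood at the WT level and the other KO libraries below it. With 3 libraries a group, a p above the threshold does not show that a ratio was equal.

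**Figure D3:**
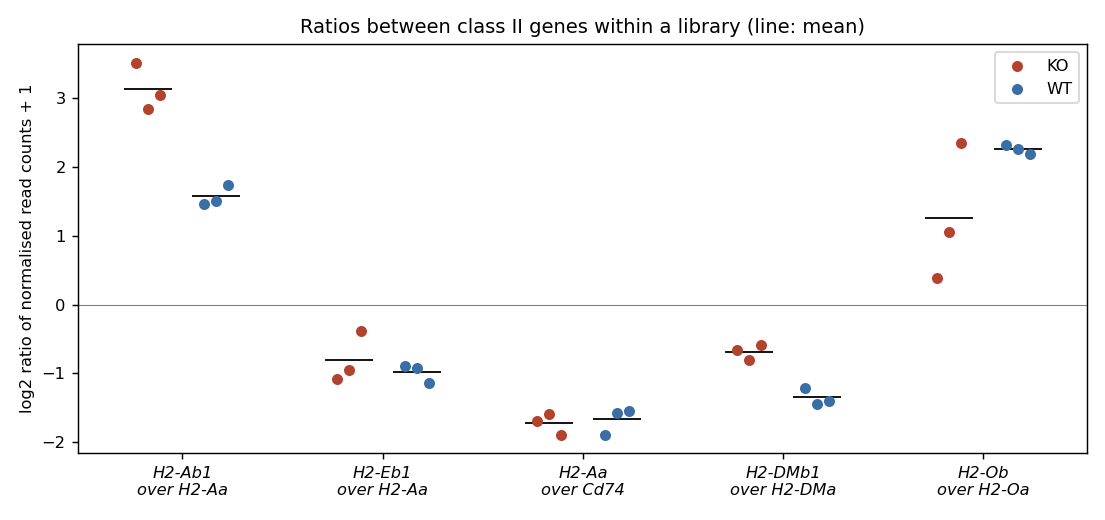
Log2 ratio of normalised read counts + 1 between 2 class II genes of the same library, for 5 pairs, with 3 KO and 3 WT libraries as points and their means as lines. The groups are apart for H2-Ab1 over H2-Aa and for H2-DMb1 over H2-DMa and overlap for the other 3 pairs.

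The make-up of class II reads restates the unequal fold changes above as shares of a total, so a lower share of one gene raises the others. The groups did not overlap for H2-DMa, H2-DMb1, H2-DMb2, Cd74, H2-Aa, H2-Eb1 and H2-Ob, and overlapped for H2-Ab1, H2-Oa and Ciita. Values of single genes had the groups apart in 40.9% of all tested genes. Shares within other sets of genes were not computed, so this is a description. The H2-DM genes together held 67.1%, 65.2% and 64.8% of the reads of the 10 genes in KO and 39.1%, 48.7% and 50.9% in WT. Cd74 held 5.50%, 7.17% and 7.84% in KO and 23.5%, 17.2% and 14.4% in WT. H2-Aa held 2.06 ± 0.35% in KO and 5.67 ± 0.69% in WT, and H2-Eb1 1.21 ± 0.41% in KO and 2.89 ± 0.59% in WT (SD, n = 3 each). The share of H2-Ab1 was near level, at 18.1 ± 1.30% in KO and 16.8 ± 0.56% in WT (SD, n = 3 each).

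**Figure D4:**
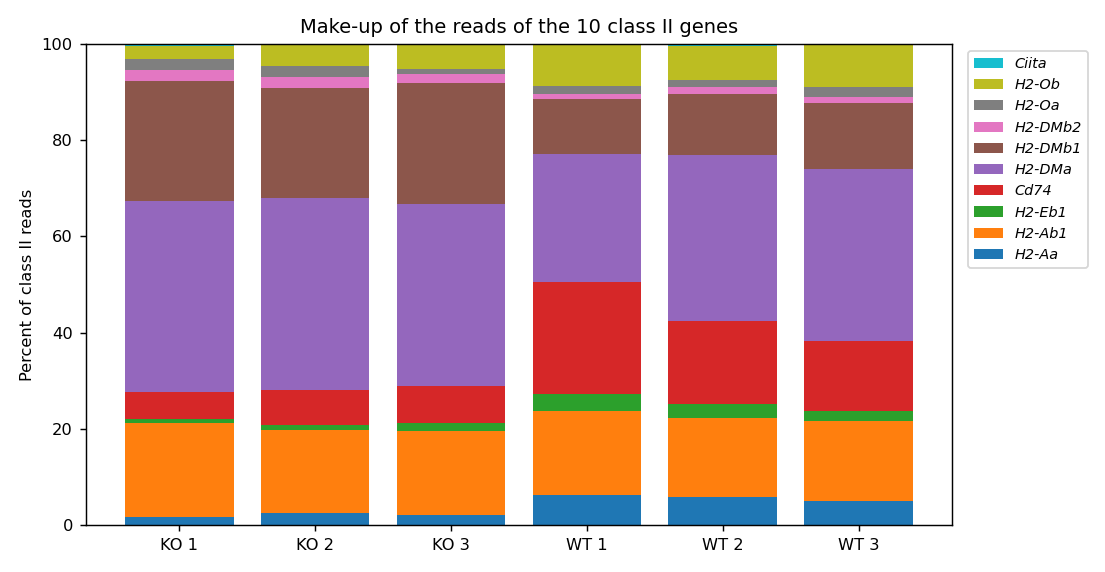
Percent of the reads of the 10 class II genes that belonged to each gene, for 3 KO and 3 WT libraries. The H2-DMa and H2-DMb1 blocks are larger and the Cd74, H2-Aa, H2-Eb1 and H2-Ob blocks smaller in KO, with H2-Ab1 near the same share in all libraries.

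Levels of different genes were compared per kilobase of annotated exon. In KO, H2-DMa and H2-DMb1 led with 1213 ± 145.6 and 1189 ± 131.9 normalised reads per kb and overlapped, and H2-Ab1 (611.1 ± 36.4) and Cd74 (340.8 ± 96.02) came next, each apart from its neighbours. H2-DMb2, H2-Oa, H2-Ob, H2-Eb1 and H2-Aa followed between 102.5 and 45.1 per kb, each overlapping the next, and Ciita was last at 2.19 ± 1.54 (SD, n = 3). In WT, H2-DMa (3268 ± 298.5) and Cd74 (3011 ± 1034) led and overlapped, then H2-DMb1 (2015 ± 39.7) and H2-Ab1 (1880 ± 228.8), which also overlapped (SD, n = 3 each). H2-Ob, H2-Eb1, H2-Aa and H2-Oa lay between 624.9 and 324.8 per kb, each overlapping the next, followed by H2-DMb2 (196.8 ± 8.11) and Ciita (9.05 ± 2.08). Cd74 was the fourth gene in KO and the second in WT. These orders hold for this measure of length only. H2-Aa had 3798 bases of annotated exon but 1128 in its longest protein-coding transcript, and H2-Eb1 had 1459 against 1669. The places of such genes could change with transcript length, and that order was not tested.

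Within each group a single library was extreme for most class II genes, though not for all. The counts given here were not taken over all tested genes, so they are a description. KO replicate 1 was the lowest KO library in 8 of the 10 genes, the exceptions being H2-Oa and Ciita, which were lowest in KO replicate 3. Among WT libraries, replicate 1 was highest in 6 genes, H2-Aa, H2-Ab1, H2-Eb1, Cd74, H2-Oa and H2-Ob, while the 3 H2-DM genes and Ciita were highest in WT replicate 2.

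Markers of other cell types that can express class II molecules were examined beside this result. For comparison, 13.0% of all tested genes were called lower and 10.3% higher. Of 14 dendritic cell markers, 9 fell and 0 rose, and the list summed to 14882 to 17251 normalised reads in KO and 34114 to 39793 in WT. Cd209a, a lectin of monocyte-derived dendritic cells, had 0, 7.86 and 0 in KO and 183.6, 196.03 and 167.5 in WT (log2 fold change -6.47), and Siglech, of plasmacytoid dendritic cells, fell by 4.62 on the log2 scale. Flt3 (-1.59) and Tcf4 (-0.81) fell as well, and both are also expressed in progenitors. Irf8 averaged 7069 in KO and 14750 in WT, and Flt3 4787 in KO and 14342 in WT. Together with Tcf4 (2210 in KO and 3852 in WT) they made up most of the sum of the dendritic cell list. Of 15 macrophage and monocyte markers, 4 fell, Lyz2 (-1.32), Cd163 (-2.58), Adgre1 (-1.99) and Cx3cr1 (-1.83, whose call 10 of 18 alternatives ended), while Fcgr1, named after its value was seen, rose (adjusted p = 0.0495 in limma). No gene of this list was called higher without the intensity trend or with a pseudocount of 0.1, so the Fcgr1 call was lost in both. The count of macrophage and monocyte calls moved between 3 and 11 over the alternatives. The list summed to 73907 to 91161 in KO and 100674 to 129286 in WT. Most of it was Ly6c2 and Lyz2. Ly6c2, named after its value was seen, averaged 49233 in KO and 43199 in WT without passing the test. Lyz2 averaged 20807 in KO and 51364 in WT, so the lower sum in KO rests on Lyz2 and is not a fall shared by the list.

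Several defining B cell markers had no reads. Of 14, 7 were at 0 reads in every KO library, and Pax5 and Ebf1, transcription factors that define B cells, were at 0 in all 6 libraries. The list summed to 2753 to 3254 normalised reads in KO and 4550 to 4647 in WT, of which Cd79b, named after its value was seen, made up 2533 in KO and 2632 in WT on average. The adaptor gene Blnk (-2.59), the receptor gene Cd72 (-1.99) and Cd22 fell, with 2 to 5 calls over the alternatives. Cd72 averaged 411.4 in KO and 1573 in WT, Blnk 34.3 in KO and 204.2 in WT, and Cd22 was at 0 in all KO libraries against a WT mean of 24.5. Of 10 tested T, NK and innate lymphoid markers, 7 fell and 1 rose (3 to 8 calls over the alternatives). Of all tested genes, 13.0% were called lower and 10.3% higher. The list summed to 42085 to 44712 in KO and 35541 to 36829 in WT. Most of it was Nkg7 (42658 in KO and 34159 in WT), a granule gene also expressed outside these cells, whose higher call 3 alternatives ended. Gata3 (-2.79) and Il7r (-3.03) fell, as did Ncr1, which was at 0 in all KO libraries and had 5, 5 and 9 reads in WT. The call of Ncr1 was lost in 4 of the 13 alternatives that tested it (adjusted p up to 0.11), and Cd8a was at 0 in all 6 libraries. The part of any of these cells in the class II result was not tested.

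The proteins that hold CIITA at class II promoters showed no common change. Of 8 genes, 1 rose and 0 fell, where 23.3% of all tested genes were called in either direction. That gene was Atf1, of the CREB family (log2 fold change 0.42, adjusted p = 0.0124 in limma), and its call was lost without the intensity trend and without KO replicate 3 (adjusted p up to 0.0655). The RFX subunit genes Rfx5 (1289 ± 382.0 in KO and 1657 ± 363.5 in WT), Rfxap (1643 ± 139.1 in KO and 1949.8 ± 147.0 in WT) and Rfxank (1407 ± 51.9 in KO and 1367 ± 118.7 in WT) did not pass (SD, n = 3 each). Nor did the NF-Y subunit genes Nfya (264.7 in KO and 353.5 in WT), Nfyb (3709 in KO and 3878 in WT) and Nfyc (2935 in KO and 2676 in WT), or Creb1 (3139 in KO and 3760 in WT).

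Among regulators of Ciita itself, 3 of 9 tested genes fell and 1 rose, beside 13.0% of all tested genes called lower and 10.3% higher. Those that fell included the interferon regulatory factor genes Irf8 (-1.05) and Irf2 (-1.12), and Spi1, which encodes the myeloid factor PU.1, rose by 0.55 on the log2 scale (adjusted p = 0.0517 without the intensity trend). Irf1 averaged 2157 ± 1035 in KO and 2616 ± 320.4 in WT (SD, n = 3 each) and did not pass, but gained a call as lower in 2 of 18 alternatives, with library quality weights and without KO replicate 1 (-0.74). Its log2 fold change was -0.10 without KO replicate 3. Usf1 (-0.18) and Socs1 (0.30) did not pass. Prdm1 (-2.16) did not pass except with library quality weights (-4.51) and had a log2 fold change of -0.62 without KO replicate 3. Irf4 (-1.82) did not pass and ranged from -3.39 to -1.16 with libraries left out, on means of 4.91 in KO and 16.9 in WT. Pax5 had no reads. Of 11 tested genes of the interferon gamma pathway, 5 fell and 1 rose, beside 13.0% and 10.3% of all tested genes. Those that fell included Jak1 (-0.46), Jak2 (-0.55), the GTPase Gbp2 (-1.76) and the chemokine Cxcl9 (-3.70), and the receptor gene Ifngr1 rose (0.49). Cxcl9 and Ifngr1 were named after their values were seen, and their calls were lost in 4 and 5 of 18 alternatives (adjusted p up to 0.0762 for Cxcl9 and 0.239 for Ifngr1). Ifng was at 0 in all KO libraries and averaged 5.68 normalised reads in WT, too low for the test.

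Genes that process class II molecules went both ways. Of 12, 4 fell, 3 rose and 5 did not pass, beside 13.0% of all tested genes called lower and 10.3% higher. Ctss, the main protease that trims the invariant chain in bone marrow-derived presenting cells, had 2275, 2182 and 2340.01 normalised reads in KO and 3364, 4009 and 3256 in WT (log2 fold change -0.64). Ctsl, which trims the invariant chain in thymic epithelium, rose (0.83), as did Ifi30, a thiol reductase that unfolds antigens (0.88), and Mif, the ligand of the invariant chain (0.53), whose call was lost under quantile normalization (adjusted p = 0.0574). Lgmn, an asparagine endopeptidase (-1.80), Cd83 (-4.49) and March1, the ubiquitin ligase that removes class II molecules from the surface and that Cd83 opposes (-1.21), also fell, and these 3 genes were picked with their values in view. Cd83 had 0, 0 and 11.2 in KO and 69.01, 24.7 and 75.7 in WT. The call of March1 was lost in 9 of 18 alternatives (adjusted p up to 0.14 in these) and that of Cd83 in 5 (adjusted p up to 0.0994). March1 and March8 carry numbers in place of symbols in the files and were matched by identifier. Of 6 co-stimulatory ligands, 2 fell, beside 13.0% of all tested genes. These were Cd86 (-1.61) and Cd40 (-3.94), whose call was lost in 9 of 18 alternatives, while Cd274 (-0.44) and Icosl (-0.73) did not pass.

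The class II genes on chromosome 17 enclose other genes, among them 4 of the class I pathway (Psmb8, Psmb9, Tap1 and Tap2). Of 10 such genes between H2-Oa and H2-Eb1, 8 were tested, 5 fell and 0 rose. The tested genes of the region had a median log2 fold change of -0.58. Among all tested genes of the series, 13.0% were called lower. Tap1, a subunit of the class I peptide transporter, fell by 0.53, and Psmb9, an immunoproteasome subunit, fell by 0.52. Tap2, named after its value was seen, averaged 6838 ± 873.5 in KO and 10729 ± 2809 in WT (SD, n = 3 each), but 8 of 18 alternatives ended its call, among them the removal of any library but WT replicate 1 (adjusted p up to 0.132). Gm20496, which overlaps Psmb8 and Tap2 on the other strand, had a log2 fold change of -1.06, and its call was lost in 6 alternatives. Gm20506, between H2-Ob and H2-Ab1, had a log2 fold change of -3.11 on means of 1.31 normalised reads in KO and 15.5 in WT, and its call was lost in 11 alternatives. Brd2 and Psmb8, named after their values were seen, lie between class II genes and averaged 6243 and 24712 in KO against 5579 and 27140 in WT, without passing the test. None of the 5 calls held without the intensity trend.

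**Figure D5:**
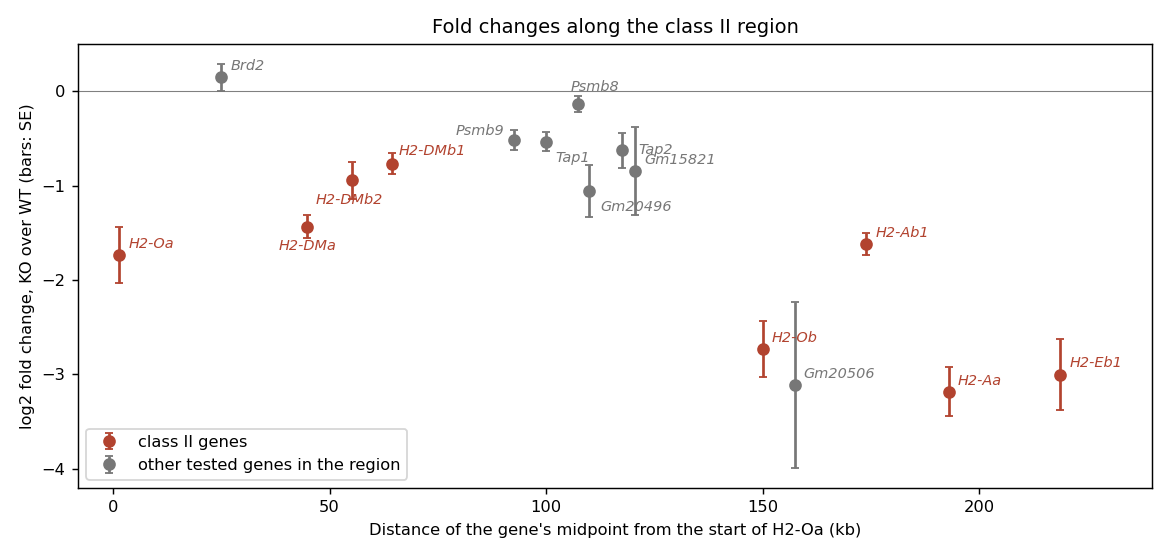
Log2 fold change, KO over WT, with SE, of the tested genes along the class II region, by the distance of each gene's midpoint from the start of H2-Oa in kb. Class II genes are red and other genes grey; Brd2, Psmb8, Psmb9, Tap1 and Tap2 lie closer to 0 than the class II genes on either side of them.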

How the data were processed

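Poly(A) RNA libraries of 3 KO and 3 WT samples were analysed, grouped by their titles. The submitters' processing notes list HISAT2 and StringTie, and mm8 and mm10 as builds, with no roles, and how reads were counted is not stated. The files deposited by the authors give a signal for each gene. Within 0.01 of a read, 100% of these values were whole multiples of their library's step, which equals the inverse of DESeq2's size factor on the recovered reads. Coordinates are GRCm38, since 49035 identifiers share version, start and end with GENCODE M21. Exon length was the union of M21 exons inside the files' gene span.

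KO was compared with WT by limma 3.58.1 (R 4.3.3, intensity trend) on log2(value + 1), for genes of at least 1 in at least 3 of 6 libraries, with two-sided p-values adjusted over all 20136 genes. Fold changes on this scale understate changes of low genes. The procedure was tested on simulated data. Alternatives included edgeR 4.0.16 and DESeq2 1.42.0 on recovered reads. The members and gene lists were chosen with earlier results of these data known. Named were all members, Ppp2ca, all genes of the promoter factor and Ciita regulator lists, up to 4 genes with the smallest p of each other list and of the region, and the genes nearest in profile to H2-Aa, Cd74 and Ciita. The text marks any gene picked otherwise, and some genes of these lists are not reported here. Reads carry no molecular identifiers, so floors of 3 reads cover counting error only.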

Additional observations from a re-analysis of the deposited data

How the results depend on the processing

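Across 18 alternatives to the main test, between 8 and 10 class II genes were called lower and 0 higher. Of the 180 values of single members, 172 kept their direction and side of the threshold, 2 lost the call (both H2-DMb2), 6 gained it (all Ciita) and 0 turned. Quantile normalization moved the median of all genes by 0.10 on the log2 scale, and relative to that shift all 10 members stayed lower. With the replicate number as a block, 3862 genes and the same count of 9 members were called. Correlations of the deviations of same-numbered libraries were between -0.0234 and -0.0107, so no pairing by replicate number was seen. This does not show that the libraries were unpaired.

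Several counts moved by over 1.5 times, and those of the B cell, macrophage and lymphoid markers stand beside their results. Without the intensity trend 2821 genes were called, and 0 promoter factors, 3 interferon gamma genes, 1 co-stimulatory gene and 0 genes of the region. Library quality weights called 2 promoter factors. Co-stimulatory calls were 1 with a pseudocount of 0.1 and 1 with edgeR. Calls in the region were 3 with a pseudocount of 0.1 and 3 with no filter. Leaving out each library gave 2707 (without KO replicate 3) to 4391 genes, 0 to 1 promoter factors, 1 to 2 co-stimulatory genes and 2 to 4 genes of the region. The all-gene count was 3061 without WT replicate 1. The log2 ratio difference ranged from -0.0277 to 0.32 for H2-Eb1 over H2-Aa and from -0.16 to 0.0314 for H2-Aa over Cd74, and the log2 fold change from -0.13 to 0.0044 for Nfyb, from -0.64 to 0.0771 for Creb1 and from -0.0002 to 0.11 for Rfxank, so these signs turned with a library. Fewer samples entered each of these fits. The causes of the other differences were not tested. Depth limits Ciita most, with 4 reads in KO replicate 3.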

Other observations

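Genes with a profile over the 6 libraries like that of H2-Aa were sought among all tested genes. The measure was the root mean square difference of log2(value + 1), each gene taken relative to its own WT mean, among tested genes with a mean of at least 50. Gucy1a3, a subunit of the nitric oxide receptor, was nearest at 0.109 and averaged 86.8 normalised reads in KO and 810.4 in WT. Cd74 came second (0.148), then Treml1, a receptor of platelet granules (0.161), Gimap3, a lymphocyte GTPase (0.199), and Itsn1 (0.228). For Cd74, the nearest were H2-Aa (0.148) and H2-Eb1 (0.189), before Gucy1a3 (0.21), Treml1 (0.212) and Gimap3 (0.224). Their log2 fold changes were -3.20 for Gucy1a3, -3.03 for Treml1, -3.38 for Gimap3 and -2.97 for Itsn1. For Ciita, the nearest were Hspa12b (0.387), Pcdhga7 (0.424), Hdx (0.449), Cadm1 (0.482) and Rasl12 (0.513), each with WT means between 82.9 and 153.2 normalised reads, so all of them rest on few reads. The measure takes in the difference between genotypes as well as that between replicates, and says nothing of shared control.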
